A study of Rattus norvegicus with 6 samples.

Results

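NMO-IgG is human immunoglobulin G that contains antibodies to aquaporin-4 (AQP4), and the array analysed here carried spinal cord RNA of Lewis rats that received NMO-IgG and no T cells. It was compared with a pair of control arrays of rats that had no T cells either: control IgG only, from rats injected with subcuvia, a normal human IgG preparation, and healthy control, from untreated rats. The members are the targets whose signal with NMO-IgG lay beyond both controls on the same side, and there were 11882 of them, 6208 higher and 5674 lower, among 17941 targets compared and 36410 on the array. All rats were adult Lewis rats. The tissue was formaldehyde-fixed and paraffin-embedded spinal cord, taken 24 h after the antibody, and RNA of 5 rats was pooled for each antibody group and of 3 rats for the healthy control. The other 3 arrays of the study were from rats that received T cells specific for myelin basic protein (MBP), together with NMO-IgG (ENMO), with control IgG (EAEcoI) or with PBS (EAEcoP).

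AQP4 is a water channel that astrocytes hold at high density in the end-feet that surround blood vessels. Antibodies bound to it can activate complement and engage Fc receptors on microglia, macrophages and granulocytes, and astrocytes are lost as a result. Circulating IgG enters the uninflamed central nervous system poorly, and in rats the antibodies are known to cause astrocyte loss when T cells have opened the blood-brain barrier. The comparison addresses which transcripts differ in the spinal cord when the antibody is given on its own.

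Signals are given as normalized signal intensities (NSI), which are background-corrected intensities after quantile normalization over the 6 arrays, on a linear scale. A target is a transcript as the array lists it, represented by its brightest probe. Each group is 1 array, so no difference has a replicate check, no p-value can be given, and the members are a description of these arrays. As a yardstick, the SD between spots of the 263 probes that lie on each array in 10 spots was 0.58 on the log2 scale, and 0.81, or 1.76-fold, for a difference between a pair of arrays. This spread covers the array and not the rats. On the NMO-IgG only array 40.03% of spots were well above background, against 41.68% on healthy control and 35.43% on control IgG only. NMO-IgG only and healthy control lay on slide 2 and control IgG only on slide 1, so one of the 2 comparisons is within a slide and the other between slides.

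Targets above both controls were 34.6% of those compared and targets below both were 31.6%. With the other arrays in its place, 33.9% of targets were highest and 35.6% lowest for control IgG only, while the healthy control was highest in 31.5% and lowest in 32.8%. Each of the 3 arrays was therefore the highest or the lowest for about the same number of targets. Past the spread between spots, 1381 targets were higher with NMO-IgG (7.7%) and 1503 lower (8.38%). These counts depended on the background correction, with 563 higher and 260 lower after normexp correction and 869 and 412 without correction. For the healthy control the same counts were 1174 and 1438, and for control IgG only 1425 and 2153. More than 2-fold beyond both controls were 966 targets higher (5.38%) and 1085 lower (6.05%). At the limit set by the spread between spots, the last higher member lay 0.8144 from its nearer control on the log2 scale. The first target short of that limit lay at 0.8129, and on the lower side the values were -0.8144 and -0.8138. Of the 1381 higher members 38.2% were well above background on all 3 arrays, and of the 1503 lower members 47.3%, against 65.2% of all targets compared. The median NSI of the higher members was 72.9 with NMO-IgG, 24.6 with control IgG and 25.7 in the healthy control, and that of the lower members was 18.7, 52.7 and 59.2. Over all targets compared the medians were 55.5, 54.98 and 55.5. Every later count of members uses the spread as its limit unless another is named.

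**Figure D1:**
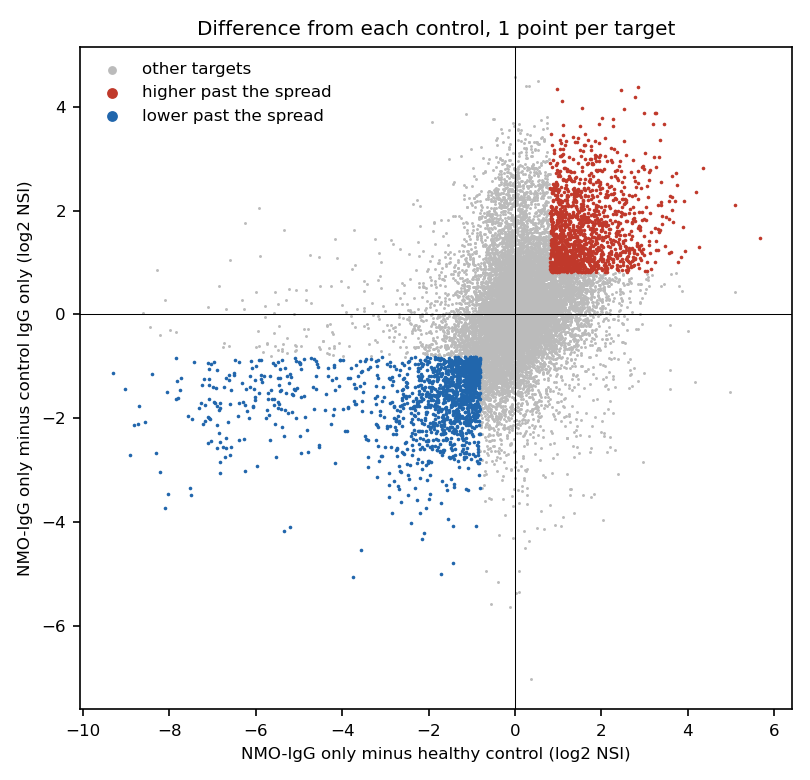
Each point is 1 of the 17941 targets, by its log2 difference in NSI between NMO-IgG only and healthy control (horizontal axis) and between NMO-IgG only and control IgG only (vertical axis). The 1381 higher members (red) and the 1503 lower members (blue) form the corners of a continuous cloud, and a tail of lower members runs far to the left, where the healthy control array was far brighter than NMO-IgG only.

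The place of a target on the array moved with the result. The array has 532 rows and 85 columns of spots. Rows 1 to 266 are called the upper rows and rows 267 to 532 the lower rows. Of the 1381 higher members 1149 (83.2%) had their spot in the lower rows and 232 in the upper rows. In the upper rows 2.24% of the targets were higher members and in the lower rows 15.1%. When the array was divided into 50 blocks of 53 rows and 17 columns, the share of higher members ran from 0% to 44.4% of a block's targets. A group of 11 blocks held 20.7% of the targets and 74% of the higher members, whereas 22 blocks had less than 2% each. Around a higher member, a median of 31.8% of the other targets within 10 rows and 5 columns were also higher members, against 2.06% around any target. Lower members were more evenly placed, with 46.9% in the upper rows, 2.8% to 21.8% of the targets of a block, and a median of 8.65% of the neighbours of a lower member being lower members, against 6.94% around any target. They were dense in an arc in the lower rows. Removing the local trend of each array left 1238 higher and 1265 lower members, of which 962 and 1059 were members before, and 81% of these higher members were still in the lower rows. The part of position in the membership of single targets was not tested, and the share of neighbouring targets that were members on the same side is given for many of the genes below.

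**Figure D2:**
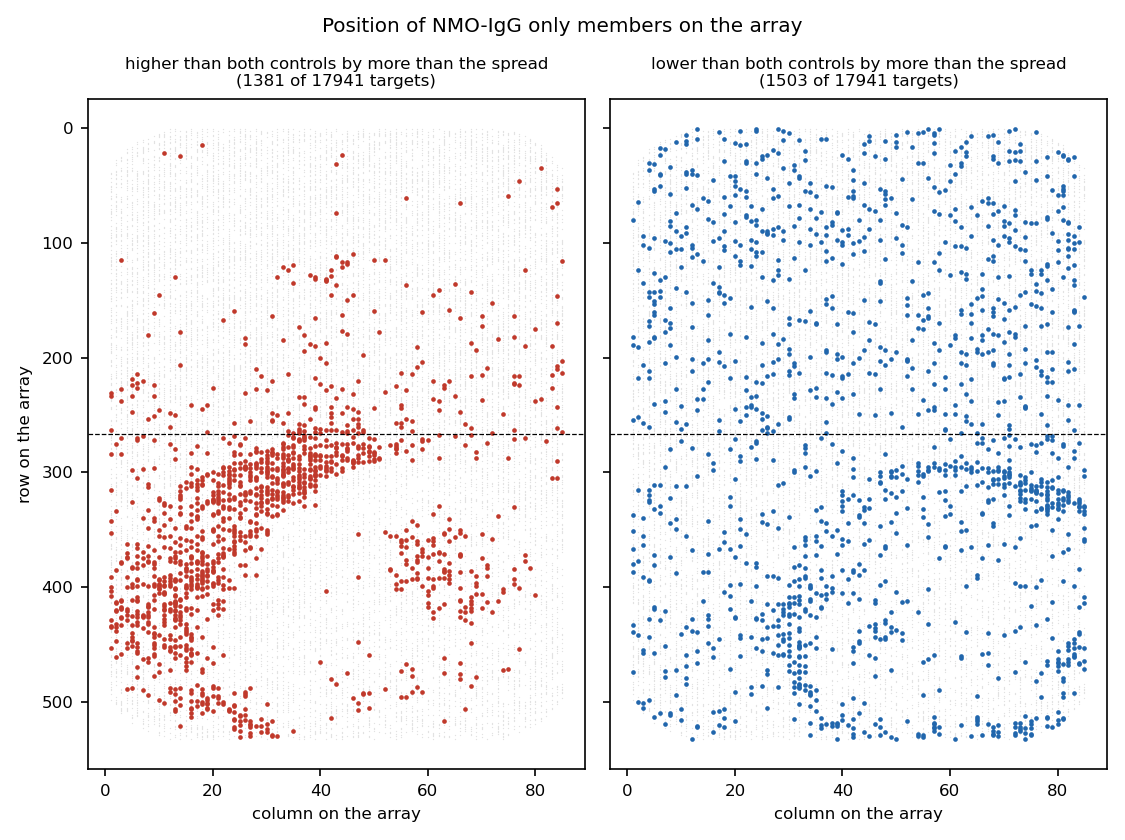
Row and column of the spot of each target on the array, with the 1381 higher members on the left (red), the 1503 lower members on the right (blue), all compared targets in grey, and a dashed line between rows 266 and 267. Higher members form a crescent in the left of the lower rows with 44.4% of targets in the densest block, while lower members are spread over the array with an arc in the lower rows.

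Further probes of the same transcript gave a second reading from the same RNA at another place on the array. The 82 higher members with a detected further probe had 88 such probes, of which 25 (28.4%) were above both controls, 33 below both and 30 in between. Over all 1215 further probes of the compared targets, 29.9% were above both controls. For the lower members, 30 of 89 further probes (33.7%) were below both controls, against 34.8% of all further probes. Past the spread on the same side were 4 of 88 (4.55%) and 5 of 89 (5.62%), against 7.33% and 9.63% of all further probes. The share of further probes on the same side was thus no higher for the members than for other targets.

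Both probes placed 9 targets past the spread on the same side, and these were chosen after their values were seen. The beginning of the probes is shown for 4 of them, since these members rest on a pair of different oligonucleotides. Each line gives the first 30 of 60 bases as printed on the array, in lower case.
Adra1b, brightest probe: cctgcgcccaatgatgacaaagaatgtggg
Adra1b, further probe: aatcccatcatctacccgtgctccagcaag
Smarcd2, brightest probe: agatctgttgttaccttttgcagttggtct
Smarcd2, further probe: ttggggagcaggtttttctatgtgggagcc
Lpin3, brightest probe: agccctgacctccagctattaaacgtgtca
Lpin3, further probe: atccagcagctgtttctgccccaaagacag
Pnpla6, brightest probe: tgcttgacagagtatgaggaagatgcggga
Pnpla6, further probe: ctggactgacttgccctgtccctaagggaa

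Adra1b (NM_016991), an alpha-1 adrenergic receptor, had an NSI of 206 with NMO-IgG, 109 with control IgG and 86.8 in the healthy control by its brightest probe, and 156, 50.7 and 66.8 by the further one. It was higher by both readings, in an area where 29.4% of the neighbours were higher members. Smarcd2 (NM_031983), a subunit of the SWI/SNF chromatin remodelling complex, had an NSI of 128, 758 and 440 in the same order, and 7.77, 29.2 and 27.0 by the further probe, which was not well above background on every array. Lpin3 (NM_001014184), a phosphatidate phosphatase, had 197, 443 and 404, and 110, 197 and 220 by the further probe. Pnpla6 (ENSRNOT00000001298), also called neuropathy target esterase, had 78.1, 147 and 225, and 35.6, 71.7 and 130. These 3 were lower by both probes, and the share of neighbours that were lower members was 14.8%, 19.4% and 1.52%. The others were Naa15 (an N-terminal acetyltransferase subunit), Tmem150c and the unnamed transcript AI233983 on the higher side, and Ttll5 (a tubulin polyglutamylase) and Ubald2 on the lower side. Their further probes were below background on at least 1 of the 3 arrays, except for Ubald2, whose further probe gave 116, 232 and 221.

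The probes with 10 spots gave the most precise values, because the spots lie at different places and their mean has an SE. Such a probe stood for 119 of the targets compared. Of these, 50 (42%) were above both controls and 31 (26.1%) below, and none was more than 2-fold above both while 5 (4.2%) were more than 2-fold below. Among the 17822 targets with 1 spot, 5.42% were more than 2-fold higher and 6.06% more than 2-fold lower. Of the 119, 13 were above both controls and 20 below both by more than 2 SE of the difference between spots. The genes named from here to the end of this group were chosen after their values were seen. For 4 of those that were more than 2-fold lower, the beginning of the probe is shown, 30 of 60 bases each.
Slc2a1: tctcctgtgcactgagggccagacaaacac
Oprm1: gcagaatggttgattctcactctgaaagga
Slc28a2: ttgggcagggatggaggtgagggaatatat
Avp: gggagctgctgcttaggctggtacagctgg

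Slc2a1 (NM_138827), the glucose transporter GLUT1 of the blood-brain barrier endothelium, had an NSI of 11.5 with NMO-IgG, where it was not well above background, 35.1 with control IgG and 70.0 in the healthy control. The difference on the log2 scale was -1.61 ± 0.24 (SE over spots) from control IgG and -2.61 ± 0.22 from the healthy control. On the arrays with T cells its NSI was 58.3 in ENMO, 31.5 in EAEcoI and 101 in EAEcoP, so the NMO-IgG only array had the lowest of the 6 values. Oprm1 (NM_013071), the mu opioid receptor, had 86.0, 228 and 1110, with differences of -1.41 ± 0.23 and -3.69 ± 0.27. A further probe of it gave 26.7, 20.9 and 27.5. Avp, the precursor of vasopressin, had 12.5, 31.6 and 26.6 with differences of -1.34 ± 0.17 and -1.10 ± 0.13. Its further probe gave 19.0, 27.7 and 31.9, with NMO-IgG also below both controls but by differences within the spread, -0.54 and -0.74. The first probe was not well above background with NMO-IgG, nor the further one with control IgG. Slc28a2, a nucleoside transporter, had 10.2, 22.7 and 24.1, the first of these under the detection floor of 10.6 on that array.

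The genes that were less than 2-fold below at least 1 control included receptors and neuropeptides. Grin2c, a subunit of the NMDA glutamate receptor, had an NSI of 107 with NMO-IgG, 436 with control IgG and 208 in the healthy control. Grin1, the obligatory subunit of the same receptor, had 1642, 3466 and 2279, a difference of -1.08 ± 0.12 from control IgG and -0.47 ± 0.10 from the healthy control. Cck, the precursor of cholecystokinin, had 29.6, 83.9 and 49.0, and Npy, the precursor of neuropeptide Y, had 595, 941 and 739. Npr1, a receptor of natriuretic peptides, had 423, 942 and 826. In each of these 5 the control IgG array was the highest of the 3. The transcription factor gene Jun, an immediate-early gene, had 60.5, 94.7 and 105, with differences of -0.65 ± 0.11 and -0.80 ± 0.14. Rplp1, a ribosomal protein gene, was also lower, with 1268, 1949 and 2171.

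The higher side held 13 targets. Calca (NM_017338), the precursor of calcitonin and CGRP, had an NSI of 3092 with NMO-IgG, 1516 with control IgG and 1768 in the healthy control, differences of 1.03 ± 0.12 and 0.81 ± 0.14. Its further probe, with 25.5, 28.4 and 27.1, had the other order. Gal, the precursor of galanin, had 483, 238 and 367, with differences of 1.02 ± 0.11 and 0.40 ± 0.15. Hcrt, the precursor of orexin, had 894, 595 and 558, and Bdkrb2, a bradykinin receptor, had 588, 426 and 352. Prkca, protein kinase C alpha, had 201, 113 and 126. Il6, the precursor of the cytokine interleukin-6, had 74.7, 26.5 and 47.0, with differences of 1.49 ± 0.36 and 0.67 ± 0.30, and 39.4, 19.5 and 6.65 in ENMO, EAEcoI and EAEcoP. Others on the higher side were Epo, Esr1, Slc2a4, P2rx7 and the transcripts AA819521 and XM_346384. None of these genes reached a 2-fold difference from both controls.

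**Figure D3:**
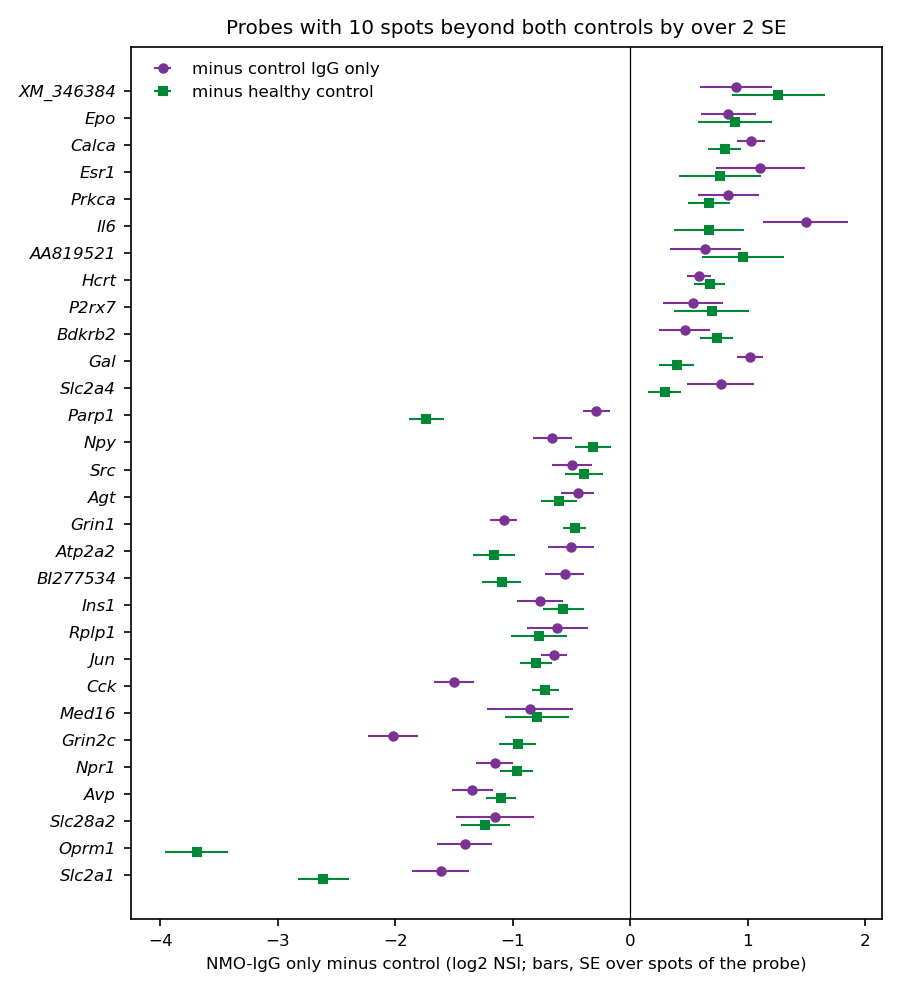
Log2 difference in NSI between NMO-IgG only and control IgG only (circles) and healthy control (squares) for 30 probes with 10 spots per array that lay beyond both controls by more than 2 SE; bars are the SE over spots. The higher targets differ by less than 2-fold from at least 1 control, and Slc2a1, Oprm1, Slc28a2 and Avp lie more than 2-fold below both.

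The targets with the largest differences among the 6537 that had a gene symbol and were well above background on all 3 arrays are given next. All 12 on the higher side had their spot in the lower rows, and 27.9% to 71.9% of their neighbours were higher members. Or1n2 (NM_001000388), an olfactory receptor, had an NSI of 350 with NMO-IgG, 67.6 with control IgG and 63.9 in the healthy control, or 5.18- and 5.48-fold higher. Or2y16, Or2y11 and Or6b1, also olfactory receptors, were 3.59- to 5.72-fold higher. Of the 647 olfactory receptor targets compared, 76 (11.7%) were higher members and 31 (4.79%) lower, against 7.7% and 8.38% of all targets. In the upper rows 6 of 351 were higher members, against 232 of 10346 of all targets. They are a large family in which some genes are close in sequence. Whether one of these probes reads several genes was not tested. Bpifa5, a secreted protein of the BPI fold family, had 1056, 155 and 212, but 10899 in EAEcoI. Lonp2 (NM_001033689), a peroxisomal protease, had 428, 47.1 and 87.5. Hspb7, a small heat shock protein, had 1733, 257 and 426, and its further probe, well above background on all 3 arrays, gave 226, 244 and 265. Cib1 (NM_031145), a calcium- and integrin-binding protein, was the brightest of the 12 with 8187, 2176 and 2240, and 3967, 943 and 1744 in ENMO, EAEcoI and EAEcoP. It was higher than both controls by 3.76- and 3.65-fold, and 41.5% of its neighbours were higher members. The log2 ratio to the mean of the controls was 1.89, but 0.80 when the arrays were scaled to their 75th percentile and 0.73 with the deposited values per target. Myadml2, Cytl1 and Xylt1 were also among them.

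Higher members were rare where few neighbours were members. Among the 13821 targets with a share of higher members around them below 7.7%, 267 (1.93%) were higher members, and among the other 4120 targets 1114 (27%). The largest differences of the first kind, chosen after the values were seen, included Ocel1 (NM_001106065), with an NSI of 6780, 1977 and 1985 in the order used above, and Ctsj, a cathepsin, with 1095, 310 and 304. Tnfrsf1a (NM_013091), the main receptor of tumour necrosis factor, had 1288, 484 and 449, and with T cells 267 in EAEcoP, 704 in EAEcoI and 1230 in ENMO. The gene was above both controls by more than 2-fold, and 5.41% of its neighbours were higher members. With the local trend removed, its log2 difference from control IgG was 0.80, within the spread between spots. Akr1c15, an aldo-keto reductase, had 666, 228 and 221.

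On the lower side, 7 of the 12 targets with the largest differences were in the lower rows, and 3.7% to 28.6% of their neighbours were lower members. Abca7 (NM_207598), a lipid transporter of microglia and neurons, had an NSI of 56.9 with NMO-IgG, 966 with control IgG and 2120 in the healthy control. Mt3 (NM_053968), metallothionein-3, a zinc-binding protein of astrocytes and neurons, had 2152, 15300 and 19111, or 7.11- and 8.88-fold lower. With T cells, Mt3 ranged from 1821 in EAEcoP to 2856 in ENMO, so that control IgG only and healthy control were the brightest of the 6 arrays. Of the neighbours of Mt3 3.7% were lower and 35.2% higher members. Rita1 had 134, 1079 and 852. In the others, FAM187A, Dclk1, Samd11, Hnrnpa3, Tuba8, Ubald2, Tgfbr1, Nf2 and Ppp1r3g, the healthy control was 23.2- to 137-fold above NMO-IgG only and control IgG only 5.55- to 7.19-fold. Tgfbr1 (NM_012775), a receptor of TGF-beta, had 36.6, 213 and 3975, while another of its probes, well above background on all 3 arrays, gave 76.5, 26.6 and 40.5, above both controls. Hnrnpa3 (NM_198132), an RNA-binding protein, had 126, 783 and 3459, its further probes gave 18.7, 7.36 and 22.0 and 9.36, 3.93 and 3.95, and with the deposited values per target it was not lower. Tuba8 had 24.9, 147 and 2371 by one probe and 110, 90.9 and 87.1 by the other. Nf2, the tumour suppressor merlin, had 137, 782 and 3182, and its further probe was below background.

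In 256 of the 1503 the healthy control was more than 8-fold above NMO-IgG only, whereas control IgG only was in 53. Of these 256, EAEcoI was also more than 4-fold above NMO-IgG only in 139, EAEcoP in 90 and ENMO in 28. Healthy control and EAEcoI lay on slide 2 with NMO-IgG only. There were 78 targets (0.435% of the 17941 compared) on which both were more than 4-fold above each of the other 4 arrays. Of these 78, 67 were lower members, or 4.46% of the 1503. A healthy control above NMO-IgG only is also part of the rule for lower members, so this overlap is partly built in. Shares over all targets are not given for the 256 and the counts among them, and the part of the slide was not tested.

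**Figure D4:**
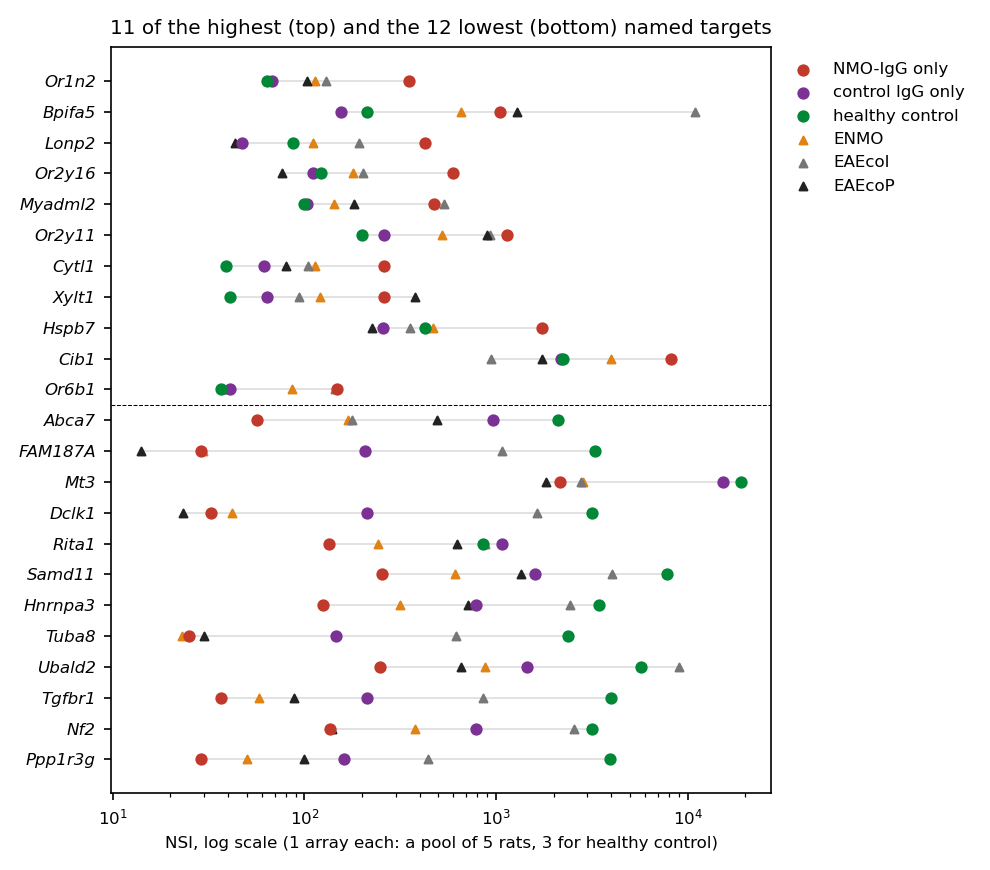
NSI on a log axis of 11 of the highest targets and the 12 lowest, 1 symbol per array (circles, arrays without T cells; triangles, arrays with T cells). NMO-IgG only (red) lies above both controls in the upper 11 and below both in the lower 12, and the healthy control (green) reaches 2371 to 7793 in 9 of the latter.

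In 1066 targets the NMO-IgG only array was the only one of the 3 that was well above background, and in 861 both controls were and NMO-IgG only was not. The former count was 1072 for healthy control and 652 for control IgG only. Lower limits of the fold change are given here against the higher of the detection floor and the dim probe's own signal. Pwwp2a was at least 10.2-fold higher, with an NSI of 135 against 13.3 and 13.2. Ralgps2, Sult1b1, Gemin8, Zfp382 and Pigu were at least 6.53- to 7.72-fold higher. These 6 lay in the lower rows, and 27.2% to 68.8% of their neighbours were higher members, except for Gemin8 (NM_001007756), a protein of the SMN complex, with 1.23%. Gemin8 had 94.4 with NMO-IgG, 5.2 with control IgG and 13.7 in the healthy control. Cyp11b2, aldosterone synthase, was at least 11.1-fold lower, with 16.4 against 181 and 2956, and 32.9% of its neighbours were lower members. Sbk3, Lamtor2, Rnaseh2a and Rrp9 were at least 4.56- to 6.66-fold lower.

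The antigen itself was not measured well. Aqp4 (NM_012825) has 4 probes on the array, and their first 30 of 60 bases are shown because every statement on the antigen rests on them.
Aqp4, probe 1 (brightest): agtcggaaggtgataaccttcaacaaacat
Aqp4, probe 2: atcacccagatcacgataaacctgcaactt
Aqp4, probe 3: gaaaatgttttctgtagcctaagtcactgg
Aqp4, probe 4: cttctaatttttgctttgctcaatctttag
None of the 4 was above the background limit without T cells. The brightest had an NSI of 4.30 with NMO-IgG, 12.3 with control IgG and 3.53 in the healthy control, so no change in Aqp4 can be given. Gfap (NM_017009), the intermediate filament of astrocytes, was also below background, and a second Gfap transcript (EF094477) was well above background on the healthy control alone, with 9.73, 41.5 and 36.0. Of 14 markers of spinal cord tissue 12 were on the array and 10 were compared. The myelin gene Mbp had 178, 612 and 169, and the myelin gene Mog had 409, 693 and 1574. The neurofilament genes Nefl and Nefh were brightest on control IgG only, with 177 and 482, against 10.5 and 34.2 with NMO-IgG. That difference is from control IgG alone. The patterning genes Hoxa5 and Hoxa10, by contrast, differed little, with 347, 430 and 356 for Hoxa5. Of 18 neuron and synapse genes compared, 2 were higher (11.1%) and 1 lower (5.56%), against 7.7% and 8.38% of all targets. Their median log2 difference from the mean of the controls was 0.02. Myelin, neuron and astrocyte markers thus differed in different directions between the 3 arrays. In tissue of many cell types, fewer cells of a type and less RNA per cell cannot be told apart.

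Of the 15 genes of AQP4 and the end-foot complex that anchors it, 9 were compared, with 1 higher and 0 lower and a median log2 difference of -0.01 from the mean of the controls, or -0.74 when the arrays were scaled to their 75th percentile. Over all targets the median was 0.01. Dmd (NM_001005244), the gene of dystrophin, was the higher one with 422, 105 and 146, and 58.5% of its neighbours were higher members. The gap junction gene Gjb6 had 1868, 1410 and 2362, between the controls. Of 20 astrocyte identity genes 16 were compared, with 2 higher and 1 lower. Aldh1l1, a folate enzyme that marks astrocytes, had 200, 29.1 and 38.8, with 54.8% of the neighbours higher, and Nes (NM_012987), the gene of nestin, had 4377, 2232 and 1838, with 1.45% of the neighbours higher. The further probe of Nes gave 53.02, 68.1 and 78.5, the opposite order. Of the reactive astrocyte genes 12 were compared, with 1 higher and 1 lower. Serping1, the C1 inhibitor, was higher and had 793, 347 and 308 and 30.3% of its neighbours higher. The lower one was the second Gfap transcript given above, well above background on the healthy control alone, with 22.1% of its neighbours lower.

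Of 28 complement genes 19 were compared. C1qc (NM_001008524), a chain of C1q, had 138, 64.5 and 72.1, with 5.63% of its neighbours higher, and was higher, as was Serping1, but the further probe of C1qc gave 17.6, 103 and 21.6. Cfd, complement factor D, had 144, 441 and 321 and C3ar1, the receptor of C3a, had 55.7, 200 and 2214, and both were lower, with 5.75% and 6.54% of their neighbours lower. Of the Fc receptor and ITAM genes 11 were compared. Tyrobp (NM_212525), an adaptor of myeloid receptors, had 2653, 1352 and 1247, with 27.6% of its neighbours higher. A second target named Tyrobp (AI102519) had 33.3, 72.4 and 50.02. Trem2, a microglial receptor that signals through Tyrobp, had 14.7, 79.7 and 59.8, with 21.1% of its neighbours lower. Microglia and macrophage genes showed 2 higher, Tyrobp and Cd74 (41.8% of its neighbours higher), and 1 lower, Trem2, of 14. The neutrophil list had 1 higher of 10, S100a8 (CA507495), which was well above background on the NMO-IgG only array and no other, with 73.7, 28.8 and 15.3 and 27.8% of its neighbours higher. Its second probe and the RefSeq transcript (NM_053822) were not well above background on these 3 arrays. The T cell list had 2 lower of 10 (20%, against 8.38% of all targets), Cd3g and Cd8b, and 0 higher (against 7.7%). Both had their spot in the lower rows, where a median of 31.5% of their neighbours were lower members. Cd3e, Cd2, Cd28 and Icos were below background on all 6 arrays.

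Of 50 interferon-stimulated genes 24 were compared, with 2 higher and 2 lower and a median of -0.06. Rsad2 had 39.1, 19.2 and 11.4 and Gbp4 had 123, 61.9 and 29.0, both higher, with 28.6% and 20.8% of their neighbours higher. Without T cells, Rsad2 was well above background with NMO-IgG alone, and its further probe on no array. Irf1 had 12.3, 33.5 and 35.3 and Irgm 11.2, 39.3 and 1783, both lower, with 26.5% and 3.95% of their neighbours lower. Of the 6 interferon genes and receptors compared 0 were higher and 2 lower: Irf3, with 372, 971 and 1125, and Jak1 (BC090029), with 191, 404 and 906. A second Jak1 target (ENSRNOT00000015438) had 186, 69.0 and 89.9. A further list holds 30 interferon-stimulated targets that were picked from the ENMO array, so that it is not independent evidence. Of these 26 were compared, with 2 higher and 2 lower and a median of 0.13. Among the genes with a qPCR assay, Irf5 (NM_001106586), a transcription factor of interferon responses, had 110, 324 and 254, and Myo1f (NM_001108076), a myosin of leukocytes, had 274, 485 and 524. Both were lower with NMO-IgG alone, and both were far brighter in ENMO, with 1502 and 10652. In the paper's qPCR on other rats, Irf5, Myo1f, Psmb9, Gbp2 and Tyrobp were significantly higher in ENMO than in the pooled controls without T cells. Against the EAE groups, Irf5 was significantly higher in ENMO than in EAEcoI, and Gbp2 than in EAEcoI and EAEcoP. Myo1f, unlike on the array, was not significantly higher by qPCR in ENMO than in EAEcoI or EAEcoP. Psmb9 had 38.4, 39.9 and 51.6, and Gbp2 had 40.6, 19.7 and 53.4, against 1616 and 4470 in ENMO. Cotl1 had 22444 with NMO-IgG and 7032 in the healthy control but was not compared, for want of a usable control IgG spot.

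Of 46 cytokine and receptor genes 27 were compared, with 4 higher (14.8%, against 7.7% of all targets) and 0 lower (against 8.38%). They were Tnfrsf1a, given above, the cytokine gene Il1a with 105, 19.4 and 32.8, the chemokine gene Ccl5 with 197, 75.8 and 85.7, and Cxcr4, a chemokine receptor, with 276, 50.1 and 133. For Ccl5 3.74% of the neighbours were higher members, for Il1a 40% and for Cxcr4 40.4%. A further probe of Cxcr4 gave 29.9, 20.9 and 33.5. Of the hypoxia and glycolysis genes 17 were compared, with Vegfa, Car9 and Pkm higher and Slc2a1 lower. Vegfa, vascular endothelial growth factor A, had 335, 119 and 132, with 54.5% of its neighbours higher. Of 19 endothelial and barrier genes 1 was higher, Tfrc, and 2 were lower, Slc2a1 and Vcam1, an adhesion molecule with 19.7, 55.9 and 66.4.

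The lists with most lower members by number were oxidative phosphorylation, ribosomal proteins and immediate-early genes. Of 22 oxidative phosphorylation genes compared 7 (31.8%) were lower and 0 higher, against 8.38% and 7.7% of all targets. The median was -0.09, and -0.76 when the arrays were scaled to their 75th percentile instead. They included Ndufa9, Ndufs1, Sdha, Cox6c, Atp5f1d and Atp5po, subunits of respiratory complexes and of ATP synthase. Cox6c had 24.2, 74.8 and 105 and Sdha 61.7, 114 and 171. The median share of lower members among their neighbours was 6.06%, and Ndufs1 had the highest with 38%. Of 39 ribosomal protein genes 6 (15.4%) were lower, against 8.38% of all targets, and 0 higher, with a median of -0.23. Rps12 had 329, 725 and 749, but its further probe gave 232, 192 and 220. Ribosomal protein genes have many near-identical pseudogenes, so a probe may read several. Of 22 immediate-early genes 4 (18.2%) were lower, Nr4a2, Dusp5, Gadd45g and Ccn1, and 1 higher, Klf2, with a median of -0.48. The first 3 were not well above background with NMO-IgG. Ccn1 had 94.6, 427 and 4004 by one probe and 141, 135 and 127 by the other. The list median ran from -0.55, for interferon genes and receptors, to 0.35, for ependymal cells and choroid plexus. The spinal cord markers, left out of this range, had -0.65. Of the remaining lists, each had at most 2 members higher and at most 2 lower, and those of potassium channels, skeletal muscle, ependymal cells and B cells had 0.

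**Figure D5:**
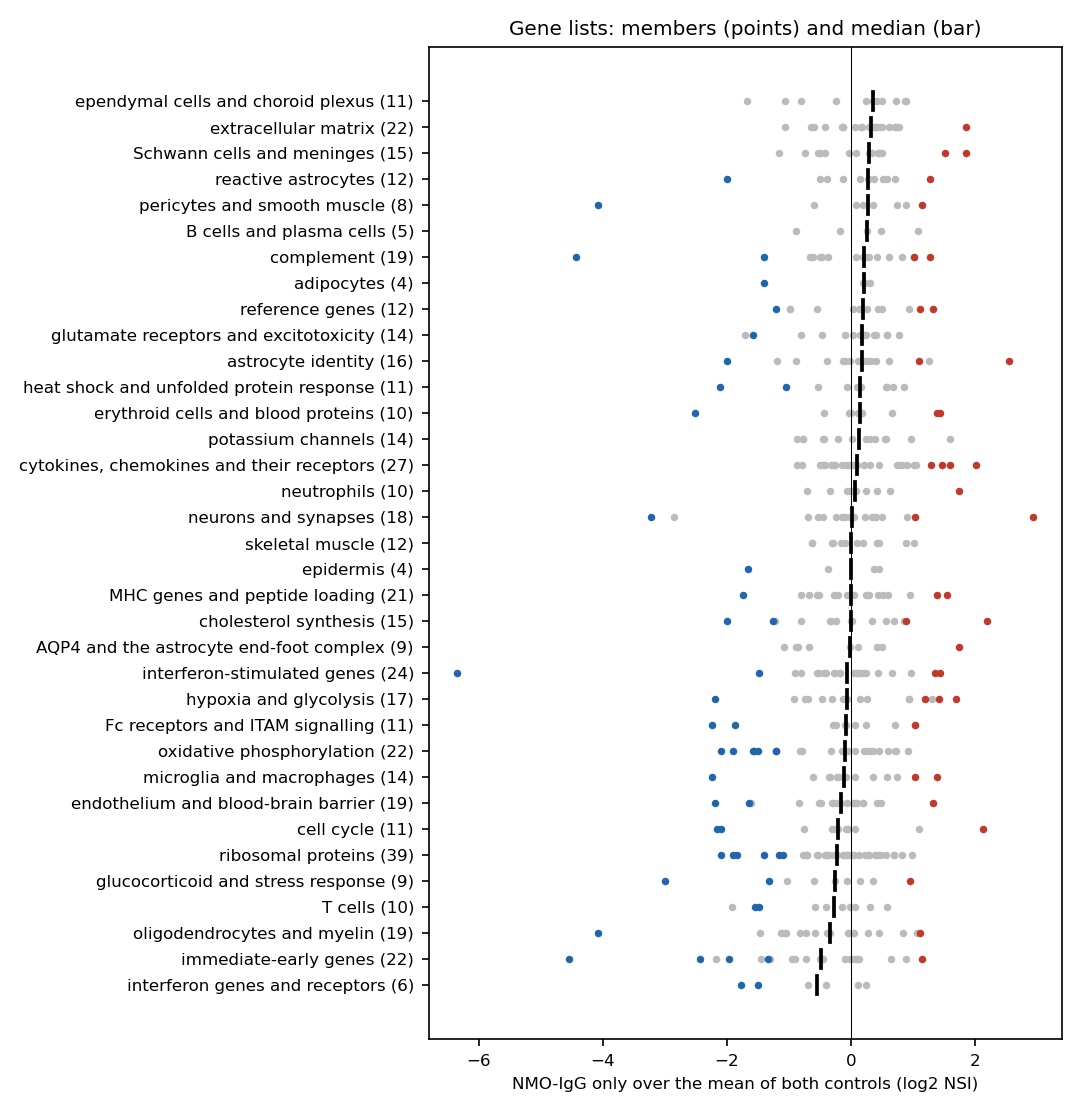
Log2 ratio of the NSI in NMO-IgG only to the mean NSI of both controls, for the compared members of 35 gene lists (points) with the median of each list (black bar) and the number of compared members in parentheses; red and blue points are higher and lower members past the spread. Medians lie between -0.55 and 0.35, and oxidative phosphorylation and ribosomal proteins have lower members and no higher ones.

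The arrays with T cells share no array with the 3 that chose the members, so the same antibody can be read there against other controls. Among all targets ENMO was above both EAEcoI and EAEcoP in 39.8% and below both in 23.4%. Of the higher members 467 of 1377 (33.9%) were above both on the ENMO array, and of the lower members 462 of 1490 (31%) were below both. The share of higher members was below that of all targets, and that of lower members above it. It differed with the position on the array: in the upper rows 118 of 232 higher members (50.9%) were above both EAE arrays, against 40.2% of all targets there, and in the lower rows 30.5% against 39.2%. Lower members were below both in 35% in the upper rows, against 22.8% of all targets there, and in 27.5% in the lower rows, against 24.2%. Cib1, Nes, Tnfrsf1a and Tyrobp were among the higher members that were also highest in ENMO of the arrays with T cells, and Rita1 and Samd11 among the lower members that were lowest in it. Mt3 was a lower member but slightly higher in ENMO than on both EAE arrays.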

How the data were processed

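For each of 6 groups, pooled spinal cord RNA was read on 1 array, a one-colour Agilent array for the whole rat genome, and the 6 arrays lay on 2 slides. Per the labels and the study's methods, RNA from paraffin sections was pooled, amplified in 1 round and hybridised. The authors deposited, per array, spot tables from Agilent Feature Extraction 10.1.1.1, with background-corrected intensity, raw intensity and other marks such as outlier and well above background, and a table with 1 intensity per target. Neither is normalized between arrays. Corrected intensities of the spots not marked as outliers were averaged per probe on the log2 scale and quantile-normalized over 41012 probes with limma 3.58.1 in R 4.3.3, which is the normalization that the methods name. Targets well above background on at least 1 of the 3 arrays without T cells (18058) were compared, without 117 that lacked a value. Symbols came from the files and from RefSeq's table for GRCr8, which held 17028 of the 36410 targets. Coordinates are not given, since the files name no build.

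The named genes were, among targets with a symbol, the 12 highest and 12 lowest by the smaller of their 2 differences, 6 each way by lower limits, members of 38 gene lists past the spread, Aqp4 and the genes checked by qPCR. Provisional names (LOC and RGD numbers) did not count as symbols. The members and lists were chosen with earlier results of these data known. No test was possible with 1 array per group, and precision is limited by how few arrays there are. The code of the rule that orders the arrays was checked on simulated data. These had large planted shifts, far less noise than these arrays and no trend with position, so the check does not show how well the rule works here. Alternatives were other normalizations and background corrections (normexp with an offset of 50), probes, filters and single controls, and after seeing the data, the upper and lower rows of the array and probes with 10 spots. A few targets are not reported here by name.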

Additional observations from a re-analysis of the deposited data

Results flagged for a closer look

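Named targets were marked where NMO-IgG lay past the spread on one side of both controls without T cells and on the other side of both EAE arrays with T cells. The opposite side in ENMO, by any amount, was no more frequent among members than among all targets. Of the higher members 303 of 1377 (22%) were below both EAE arrays, against 23.4% of all targets. Of the lower members 452 of 1490 (30.3%) were above both, against 39.8%. The difference between the effects without and with T cells was not tested, since each group is 1 array. The log2 ratio of NMO-IgG only to the mean of both controls was 2.53 for Bpifa5, 1.20 for Pkm, 1.39 for Alb (by the brightest of its 3 probes) and 1.24 for Igfbp1, all lower in ENMO than on both EAE arrays, with ratios there of -3.21, -1.29, -3.75 and -1.57. It was -1.40 for Cfd, -1.50 for Ndufs1, -1.40 for Irf5 and -0.88 for Myo1f, all higher in ENMO, with 3.27, 1.62, 2.63 and 3.71. Cfd, Igfbp1, Irf5 and Myo1f had been picked by the study from its ENMO array, so their side in ENMO was known beforehand. By the paper's qPCR, Myo1f was not significantly higher in ENMO than in either EAE group. Of the neighbouring targets on the array, 47.3% were higher members for Bpifa5, 56.0% for Alb and 64.6% for Myo1f. The further probe of Alb that was detected gave 18.3, 19.0 and 26.9 without T cells and 25.8, 32.9 and 13.5 in ENMO, EAEcoI and EAEcoP, below both controls in the former and between the EAE arrays in the latter. For Igfbp1, an insulin-like growth factor binding protein, the share was 6.12%, with an NSI of 3105 with NMO-IgG, 1089 with control IgG, 1550 in the healthy control and 438 in ENMO.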

How the results depend on the processing

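With 1 array per group the spread between rats is unknown, dim targets have wide errors, and the position on the array moves with the result. No paired analysis was possible because no group has more than 1 array. For targets higher than both controls, the count was 6208 and became 3949 among targets well above background on all 3 arrays and 13048 without a filter. For lower ones it was 5674 and became 3749, 11314, 8766 against healthy control alone and 8641 against control IgG only alone. Past the spread the 1381 higher and 1503 lower targets became 563 and 260 with normexp, 869 and 412 without background correction, 528 and 711 with all 3 arrays well above background, 2199 and 2286 without a filter, 3109 and 2687 against healthy control alone and 3828 and 3249 against control IgG only alone. Higher targets were 232 in the upper and 1149 in the lower rows. Past 2-fold the 966 and 1085 became 336 and 142 with normexp, 517 and 243 without background correction, 313 and 475 with all 3 well above background, 2414 and 2092 against healthy control alone and 3016 and 2559 against control IgG only alone. Of the higher ones 1547 were found without a filter, 117 in the upper rows, 849 in the lower rows and 0 on probes with 10 spots. The cause was not tested, except that fewer or more targets or controls enter by construction. Of the higher members 33.9% were higher in ENMO than on both EAE arrays, 40.3% than on EAEcoI alone (52.7% of all targets), 71.6% than on EAEcoP alone (63.7%), 50.9% in the upper and 30.5% in the lower rows. Of the lower members it was 31%, 42.6% (47.3%), 58.1% (36.3%), 35% and 27.5%. Among the 24 targets with the largest differences, 4 of 264 values changed direction: with the deposited values per target, Hnrnpa3 was at 0.13 without and 0.36 with quantile normalization, and Tgfbr1 at 0.33 and 0.46 (log2). The deposited value of a target combines its probes. Another 58 of the 264 moved by more than the spread in the same direction, such as Hspb7 from 2.34 to 1.09 with the mean over its probes, and with the local trend removed Myadml2 from 2.24 to 0.93 and Or2y11 from 2.31 to 1.15. The medians of the gene lists changed sign in 84 of 507 recomputed values, and that of the interferon genes and receptors was 0.02 without a filter.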
